A study of Arabidopsis thaliana with 12 samples.

Results

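The Arabidopsis genes AT2G30695 and AT3G15310 were followed over 12 Affymetrix ATH1 arrays, which hybridise labelled RNA to short probes grouped into probe sets, 1 measurement of a transcript each. They are 2 genes, each with 1 probe set, out of 22746 probe sets other than controls. Both were chosen with the differences between the suppressor lines and aba3-1 already known: when the replicate number was a term in the model (the blocked fit), they were among the 4 probe sets whose mean over the 4 lines differed from aba3-1, and the other 2 were AT5G09570 and AT2G21640. AT2G30695 was higher in the lines (0.0259% of tested probe sets were called higher) and AT3G15310 was lower (0.00865% called lower). Without that term limma called neither gene, and 0% of tested probe sets were called higher and 0% lower. These differences are therefore given as descriptions, with no test.

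The arrays form 6 groups of 2: 4 lines named S14-150, S15-118, S58-2 and S82-2, then the mutant aba3-1 and wild type (wt). The series title speaks of suppressors of aba3-1, and the 4 lines are taken to be these suppressors, which would carry the aba3-1 allele as well; no label gives the genotype of a single line, the age of the plants or the number of plants pooled. All groups were untreated and were grown on compost at 21 °C under days of 8 h light and nights of 16 h, and the aerial parts were taken. Nothing says that the 2 arrays of a group came from separate plants, so the p-values here reflect the spread of these arrays alone, which may be technical.

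ABA3 sulfurates the molybdenum cofactor that abscisic aldehyde oxidase needs for the last step of abscisic acid (ABA) synthesis. ABA closes stomata and switches on genes of drought and cold responses, and plants that lack it lose water through open stomata and wilt. A suppressor is a second mutation that reverts a trait of the first mutant, and a transcript that returns to its wt level in a suppressor is one readout of how far the plant has been restored. RefSeq (assembly TAIR10.1) lists AT2G30695 as a protein-coding gene on chromosome 2 and AT3G15310 as a pseudogene on chromosome 3, both without a name beyond the locus. A pseudogene is a gene copy that has lost an intact reading frame, and it may still be transcribed.

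The median log2 signal lay between 3.58 and 3.73 on the 12 arrays, and tests were limited to the 11561 probe sets above a log2 signal of 4 on 2 or more arrays. Both genes passed, AT2G30695 with 10 arrays above 4 (all but those of aba3-1) and AT3G15310 with 9. S58-2 replicate 1 stood apart in the large-subunit ribosomal RNA control (3.77, against 7.19 to 9.78 on the other arrays), S58-2 replicate 2 had the least extracted RNA (5.1 µg, where the highest was 15 µg), and S15-118 replicate 1 had the lowest signal of the DapX-3 spike-in control (5.73, against 6.64 to 7.83). The part of these arrays in the results was not tested beyond leaving each of them out. The arrays share replicate numbers 1 and 2 across groups, and arrays of equal number deviated together, so differences are given within each number.

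AT2G30695 was low in aba3-1 alone. Its log2 signal was 5.26 and 5.42 in S14-150, 5.53 and 5.34 in S15-118, 5.64 and 4.80 in S58-2, and 5.94 and 5.47 in S82-2 (replicate numbers 1 and 2 throughout). In aba3-1 it was 3.37 and 3.76, and in wt 5.65 and 5.37. The 8 arrays of the lines (4.80 to 5.94) did not overlap those of aba3-1, and they covered the range of wt. Both aba3-1 values were under the floor of 4 and close to the median of all probe sets on their arrays (3.73 and 3.64), so the distance from aba3-1 is measured from a signal near background. Fewer cells of a type and less RNA per cell cannot be told apart in such bulk samples, here or in any result below.

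**Figure D1:**
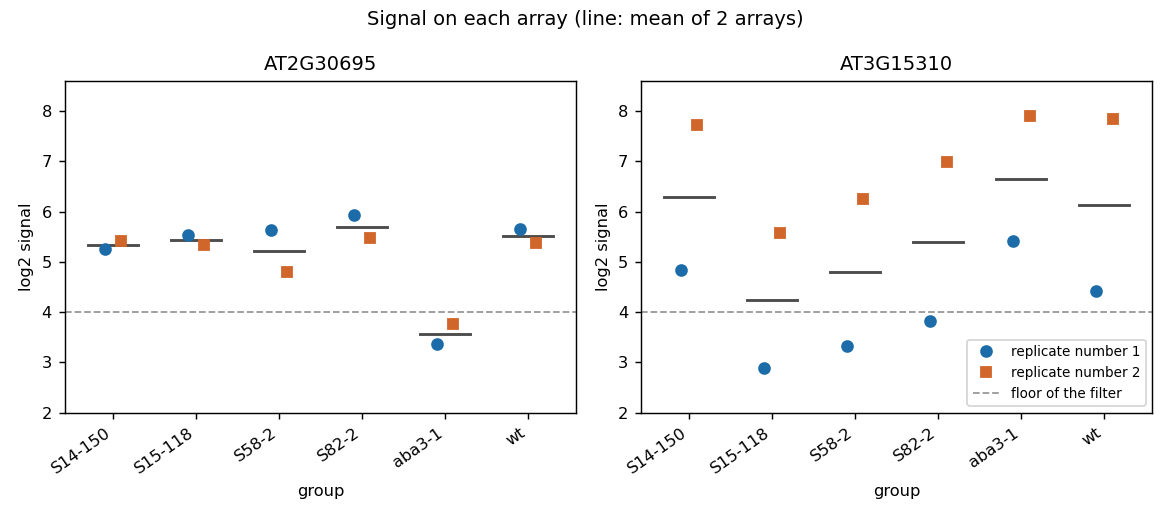
Log2 signal of AT2G30695 (left) and AT3G15310 (right) on each of the 12 arrays, by group; circles are replicate number 1, squares replicate number 2, horizontal lines the mean of the 2 arrays, and the dashed line the floor of 4. AT2G30695 lies between 4.80 and 5.94 in all groups but aba3-1 (3.37 and 3.76), and AT3G15310 is higher in number 2 than in number 1 in all 6 groups.

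Set against the aba3-1 array of the same number, all 8 line arrays were higher in AT2G30695, as in 2.73% of tested probe sets. The log2 difference was 1.89 and 1.66 in S14-150, 2.16 and 1.58 in S15-118, 2.27 and 1.04 in S58-2, and 2.57 and 1.71 in S82-2. The mean of the lines was 5.43 against 3.57 in aba3-1, a difference of 1.86 or 3.63-fold, with 2.22 in number 1 and 1.50 in number 2. S82-2 was the farthest from aba3-1 in both numbers. AT2G30695 was the only one of 11561 probe sets that was at least 1 log2 higher than aba3-1 in all 4 lines and both numbers (0.00865%). The genes were chosen on these differences, and the 4 lines were set against the same 2 aba3-1 arrays, so nothing is read from that count.

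Against wt, the lines stood within 0.57 log2 in AT2G30695 on every array pair. The difference from wt was -0.39 and 0.05 in S14-150, -0.12 and -0.03 in S15-118, -0.01 and -0.57 in S58-2, and 0.29 and 0.10 in S82-2. The mean of the lines differed from wt by -0.09, and by -0.02 without both S58-2 arrays. S58-2 replicate 2 gave the lowest signal of the 10 arrays outside aba3-1 (4.80). In order of group means, S82-2 came first (5.71 ± 0.33; SD, n = 2 here and below), followed by wt (5.51 ± 0.20), S15-118 (5.44 ± 0.13), S14-150 (5.34 ± 0.11), S58-2 (5.22 ± 0.59) and aba3-1 (3.57 ± 0.28). The steps between neighbours down to S58-2 were no larger than the wider SD of the pair, and the step to aba3-1 was larger.

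The difference between aba3-1 and wt was not itself used to choose the genes. It shares the aba3-1 arrays with the differences that were, so a gene chosen for a low aba3-1 signal was more likely to lie below wt too, and the p-values are not free of the choice. AT2G30695 was at 3.57 in aba3-1 and 5.51 in wt, with differences of -2.28 in number 1 and -1.61 in number 2. It fell by 1.95 log2 in aba3-1 (SE 0.30, limma adjusted p = 0.0447, lower in 2 of 2 pairs; blocked adjusted p = 0.00251). Thus 1 of the 2 genes was called lower, where 0.0778% of all tested probe sets were called lower without the block and 1.71% with it. The gene also passed the filter only through arrays outside aba3-1, so nothing is read from that count. The call without the block was lost when any of the 10 arrays other than those of S58-2 was left out (adjusted p from 0.0817 to 0.401), and it was lost in both fits without the filter on dim probe sets (0.102, and 0.0577 with the block). In the blocked fit it held without each of the 12 arrays in turn (0.000743 to 0.0475).

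The 4 lines were also compared with each other, which uses no aba3-1 array. In AT2G30695 the 6 differences between lines were between 0.10 and 0.49 in size, each with an SE of 0.30. The widest, S82-2 over S58-2, was 0.30 in number 1 and 0.67 in number 2 (limma adjusted p = 0.579; blocked adjusted p = 0.237). None of the 6 pairs was called in either fit, and 0 had an unadjusted p under 0.05 (limma), where 2.98% of tested probe sets were called in at least 1 pair without the block and 19% with it. With the SE at this size, a difference of the order of those seen between S82-2 and S58-2 could not be separated from the spread. Without S58-2 replicate 1 the blocked fit called that pair (0.87, adjusted p = 0.0403).

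**Figure D2:**
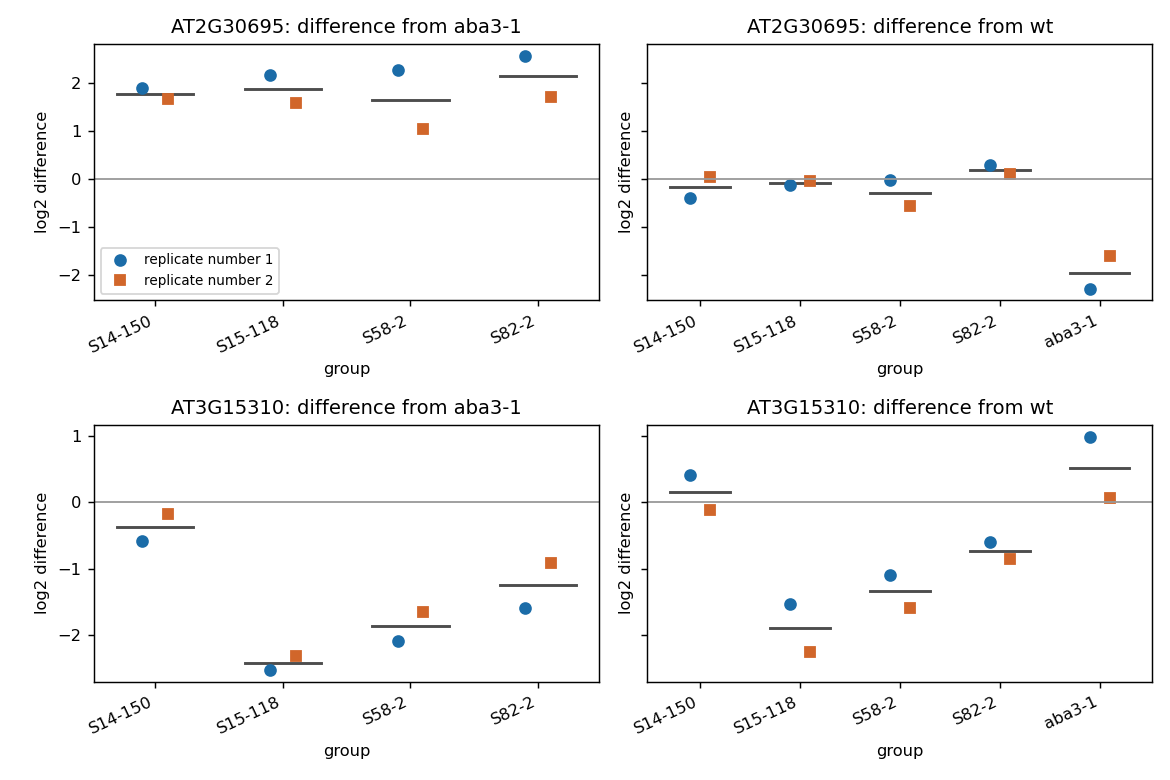
Log2 differences from aba3-1 (left) and from wt (right) within each replicate number, for AT2G30695 (top) and AT3G15310 (bottom); circles are number 1, squares number 2, and short lines the mean of both. All 8 line values lie above 0 for AT2G30695 and below 0 for AT3G15310 in the comparison with aba3-1, with S14-150 nearest to 0 for AT3G15310 (-0.58 and -0.17).

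AT3G15310, the pseudogene, differed most between the replicate numbers. On the arrays of number 1 its log2 signal was 4.84 in S14-150, 2.89 in S15-118, 3.33 in S58-2, 3.83 in S82-2, 5.42 in aba3-1 and 4.43 in wt. On the arrays of number 2 it was 7.73, 5.58, 6.25 and 6.98 in the same order of lines, 7.90 in aba3-1 and 7.84 in wt. The 2 numbers did not overlap, since the highest signal in number 1 was 5.42 and the lowest in number 2 was 5.58. Such separation was not counted over all probe sets, so nothing is read from it. In number 1, the signals of S15-118, S58-2 and S82-2 were under the floor of 4.

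The signal of AT3G15310 in number 2 exceeded that in number 1 in all 6 groups, by 2.48 (aba3-1) to 3.41 (wt). The test of the replicate number gave 2.92 log2 higher in number 2 for AT3G15310 (SE 0.12, limma adjusted p = 3.99e-08) and -0.20 for AT2G30695 (SE 0.15, adjusted p = 0.277). The choice of genes did not use this difference itself. It did use the same blocked fit and its residual spread, so these p-values are not free of the choice. One of the 2 genes was thus called higher in number 2, where 21.8% of tested probe sets were called higher and 26.2% lower. The size of the shift was less common than the call: 53 of 11561 probe sets rose more than AT3G15310. The labels do not say what the numbers stand for, and what sets them apart was not tested.

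Within each number, aba3-1 had the highest signal of AT3G15310. In number 1 S14-150 and wt followed, and S82-2, S58-2 and S15-118 were all under the floor, where no order is read. In number 2 the order ran from aba3-1 over wt, S14-150, S82-2 and S58-2 to S15-118. The means over both numbers were 6.29 ± 2.04 (SD, n = 2 here and below) in S14-150, 4.24 ± 1.90 in S15-118, 4.79 ± 2.06 in S58-2, 5.41 ± 2.23 in S82-2, 6.66 ± 1.75 in aba3-1 and 6.14 ± 2.41 in wt. Each SD was wider than any step between neighbouring groups, because it holds the difference between the numbers.

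Against the aba3-1 array of the same number, all 8 line arrays were lower in AT3G15310, as in 3.3% of tested probe sets. The differences were -2.53 and -2.32 in S15-118, -2.09 and -1.65 in S58-2, -1.59 and -0.92 in S82-2, and -0.58 and -0.17 in S14-150. In number 1 the signals of S15-118, S58-2 and S82-2 were under the floor, so no order among them is read there. The number 1 differences of these lines, and the means that include them, rest on signals near background. In number 2 S15-118 was lowest, followed by S58-2, S82-2 and S14-150. On average the lines stood -1.48 log2 from aba3-1, 2.79-fold lower, with -1.70 in number 1 and -1.26 in number 2, and -1.35 without both S58-2 arrays. S14-150 was on the same side of aba3-1 as the other 3 lines, but by less than 1 log2 in both numbers. In all, 0.0519% of probe sets had a mean of the lines at least 1 log2 lower than aba3-1 in both numbers, and nothing is read from this, as these differences chose the genes.

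Relative to wt, 3 lines were lower in AT3G15310 in both numbers and S14-150 was not. The differences from wt were -1.54 and -2.26 in S15-118, -1.10 and -1.59 in S58-2, and -0.60 and -0.86 in S82-2. In S14-150 they were 0.41 and -0.11. In number 1 the signals of S15-118, S58-2 and S82-2 were under the floor, so the sizes of these differences rest on signals near background. In number 2 aba3-1 and wt were only 0.06 apart, so no side of wt away from aba3-1 is read. These 3 lines thus lay below both wt and aba3-1 in AT3G15310, whereas in AT2G30695 the lines covered the wt range. aba3-1 itself was 0.99 and 0.06 above wt (mean difference 0.53, SE 1.78, limma adjusted p = 1.0; blocked SE 0.21, adjusted p = 0.20), so the gene was not called between aba3-1 and wt in either fit, where 0.372% of tested probe sets were called higher without the block and 3.27% with it.

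The lines differed from each other in AT3G15310 once the replicate number was in the model. Without the block 0 of 6 pairs were called by limma, 0 had an unadjusted p under 0.05, and each difference had an SE of 1.78. In the blocked fit the SE was 0.21, and 3 of 6 pairs were called, with all 6 at an unadjusted p under 0.05. The gene was chosen in this same fit, which favours a small SE, so these calls are not free of the choice. S15-118 was 2.05 log2 lower than S14-150 (-1.95 and -2.15 within the numbers, blocked adjusted p = 0.00309), and 0.156% of probe sets were called lower in that pair. S58-2 differed from S14-150 by -1.50 (-1.51 and -1.48, blocked adjusted p = 0.00485, 1.8% called lower). S82-2 was 1.17 higher than S15-118 (0.94 and 1.40, blocked adjusted p = 0.00623, 4.45% called higher). In number 1 both signals of this last pair (3.83 and 2.89) were under the floor of 4, as were S15-118 and S58-2 in the pairs with S14-150, so the number 1 differences rest on signals near background. Leaving out either S14-150 array or S15-118 replicate 2 ended the call of the first pair (adjusted p of 0.0526, 0.0541 and 0.053), leaving out either S14-150 array that of the second (0.0745 and 0.0507), and leaving out S15-118 replicate 2 or S82-2 replicate 2 that of the third (0.0598 and 0.0666).

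**Figure D3:**
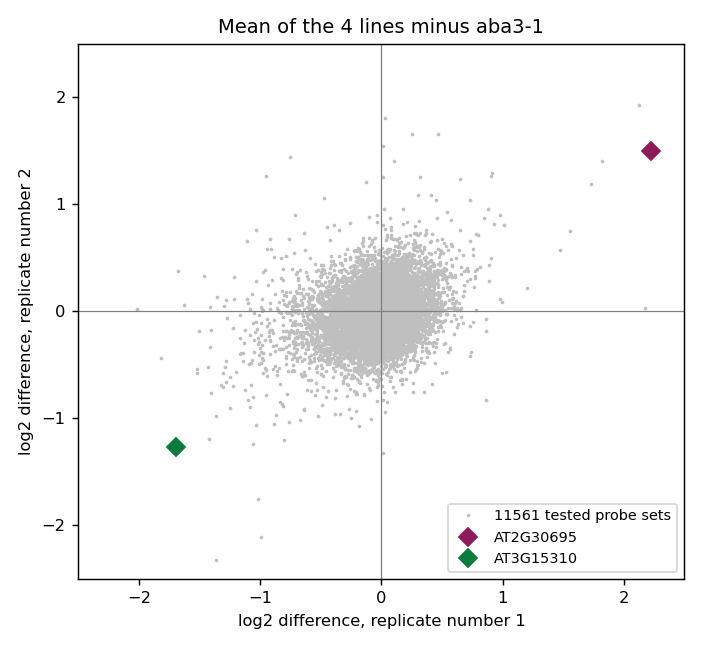
Mean of the 4 lines minus aba3-1 (log2) in replicate number 1 (x axis) and number 2 (y axis) for 11561 tested probe sets (grey) and the 2 genes (diamonds). AT2G30695 lies at 2.22 and 1.50 and AT3G15310 at -1.70 and -1.26; both were chosen on these differences.

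The genes next to each of the 2 on the chromosome were looked at by their order in RefSeq. AT2G30690, which RefSeq annotates as overlapping AT2G30695, had a log2 signal between 2.56 and 2.78 on all 12 arrays, below the floor, and so did not share the pattern of AT2G30695 at a measurable level. The strand of the 2 genes and of the probes is not given in the tables at hand. On the other side, AT2G30700 has no paired probe set, and AT2G30710, the gene after it, was between 4.54 and 5.20 on the 12 arrays. Its mean over the lines differed from aba3-1 by 0.08 in number 1 and -0.05 in number 2, against 2.22 and 1.50 for AT2G30695.

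AT3G15310 lies between AT3G15300, a protein-coding gene with the synonym MVQ4 whose product is a target of the kinases MPK3 and MPK6, and AT3G15320, another pseudogene. Neither has a paired probe set and neither is analysed here. AT3G15290, beyond AT3G15300, was between 5.13 and 5.77 on all 12 arrays, and its mean over the lines differed from aba3-1 by -0.01 in number 1 and 0.13 in number 2. The values of AT3G15310, from 2.89 to 7.90, were thus spread far more widely than those of the nearest measured gene. That range includes the shift of 2.92 between the replicate numbers, so it is not a spread between groups alone.

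Genes with a similar pattern were sought among the 6073 tested probe sets paired with 1 gene, by Pearson's r over the 12 arrays after the mean of each replicate number was taken off. These correlations describe arrays that share their aba3-1, wt and line samples, and no test was made. The 5 genes most like AT2G30695 were AT3G62790 (r = 0.843), AT5G06060 (0.824), AT2G16630 (0.818), AT5G11480 (0.811) and AT3G54200 (0.795). All 5 were lower in aba3-1 than in the mean of the lines in both numbers, but by 0.14 to 0.48 log2 where the mean difference of AT2G30695 was 1.86. Over the 10 arrays without aba3-1 their r with AT2G30695 was between 0.315 and 0.664, so that much of the likeness lay in the 2 aba3-1 arrays. None of the 5 was called between aba3-1 and wt (limma adjusted p from 0.687 to 1.0; AT2G16630 was at -0.64, blocked adjusted p = 0.0502).

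The 3 genes most opposed to AT2G30695 were AT1G64140 (r = -0.878), AT3G25910 (-0.832) and AT3G61700 (-0.829), each higher in aba3-1 than in the mean of the lines in both numbers, by 0.14 to 0.49 log2. Unnamed probe sets or those with several genes were as close: 3 lay above AT3G54200 and 2 below AT3G61700.

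The 5 genes most like AT3G15310 were AT2G46060 (r = 0.885), AT2G40980 (0.830), AT5G06970 (0.830), AT5G36210 (0.829) and AT3G17900 (0.828). Without the aba3-1 arrays their r over 10 arrays was between 0.747 and 0.937, and it was higher than over all 12 arrays for 3 of the 5. Their mean over the lines was lower than aba3-1 in both numbers, by -0.095 to -0.425, against a mean of -1.48 for AT3G15310. AT2G40980 (-0.14 and -0.19) and AT5G06970 (-0.06 and -0.30) were lower in aba3-1 than in wt in both numbers. Only AT2G46060 was higher in both, as AT3G15310 was. The log2 signal of AT2G46060 was between 3.65 and 4.77, around the floor of 4. In AT2G46060 the lines lay on average -0.30 from aba3-1 in number 1 and -0.29 in number 2, but before the number means were taken off its r with AT3G15310 was -0.433. AT5G06970 had an r of 0.957 without that step. The 3 most opposed were AT3G17680 (r = -0.893), AT2G38870 (-0.883) and AT3G45050 (-0.846), and 6 unnamed or several-gene probe sets lay above AT3G17900 and 1 below AT3G45050. AT3G17680 had a log2 signal between 2.83 and 4.33, so part of its pattern lies under the floor of 4.

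**Figure D4:**
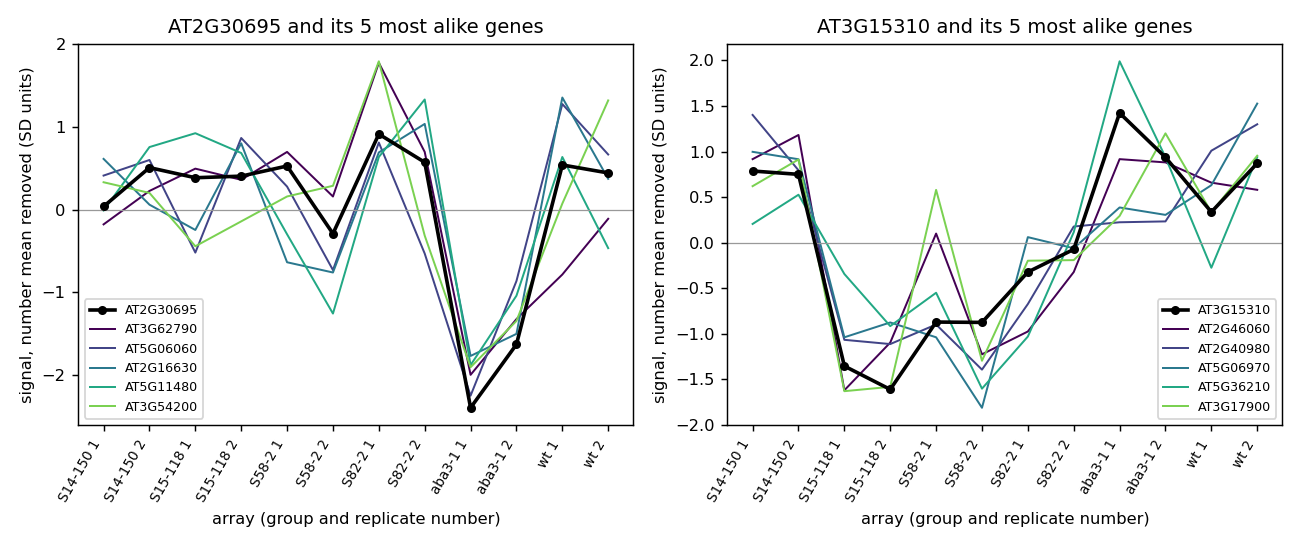
Log2 signal with the mean of each replicate number taken off, in SD units of each gene, over the 12 arrays, for AT2G30695 (left, black) and AT3G15310 (right, black) and the 5 genes most like each (colours). On the left the black line is lowest on the 2 aba3-1 arrays, and so are 4 of the 5 coloured genes. AT5G11480 is lower in S58-2 number 2 than in aba3-1 number 2. On the right the black line is highest in aba3-1 and lowest in S15-118, whose number 1 signal was under the floor of 4.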

How the data were processed

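The table the authors deposited holds 1 log2 signal per probe set and array. The submitters' processing notes name GCRMA, whose version is not given in the sources used here, and the base of the logarithm was taken as 2 from the range of the values. Of 22810 probe sets 64 controls were left out. Group means were fitted over all 12 arrays with limma 3.58.1 in R 4.3.3 (6 residual degrees of freedom, 5 with the replicate number), tested on simulated data, and Benjamini-Hochberg adjustment ran over 11561 probe sets, with calls at an adjusted p under 0.05. With 2 arrays a group, precision is limited.

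Arrays of equal replicate number are paired across groups: in all 15 pairs of groups, deviations from the group means correlated between equal numbers (r from 0.708 to 0.872 across probe sets). Among the pairs without S58-2 the lowest r was 0.798, so the weakest pairing was that of S58-2. The fit without the block is the main one, and the blocked value stands beside it where it matters. Without the block the SE also holds the difference between the numbers, which for AT3G15310 made it 1.78 against 0.21 with the block.

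The 2 genes, the gene lists and the rules were chosen with earlier results of these data known. Other genes are the 5 most and 3 least alike of each gene, chromosomal neighbours, and up to 3 tested members of each of the 2 lists in the closing section. These list members were taken by the largest difference between aba3-1 and wt. AT2G16630, AT2G40980, AT2G46060, AT3G17680 and AT5G06970 were singled out after their values were seen. So were AT2G30710 and AT3G15290, which are not the nearest genes. Of all probe sets, 13513 had 1 gene in the annotation, 503 had several, and 8730 were unnamed. Alternatives were no filter, quantile normalization, the block, and leaving out arrays.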

Additional observations from a re-analysis of the deposited data

Results flagged for a closer look

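Some differences from wt ran in opposite directions in a line and in aba3-1 on the arrays of both replicate numbers. For AT3G15310 the mean difference from wt was -1.90 in S15-118, -1.35 in S58-2 and -0.73 in S82-2, each lower in both numbers. In number 1 the signals of these lines were under the floor of 4. In aba3-1 the mean difference was 0.53, with 0.99 in number 1 and 0.06 in number 2, and it was not called in either fit. For AT2G30695 the mean difference from wt was 0.20 in S82-2, higher in both numbers, and -1.95 in aba3-1, lower in both. Both effects use the same wt arrays, so the gap between them is the line minus aba3-1 difference. The genes were chosen on the mean of such differences, so no test is given and nothing is read from the opposite directions. For AT2G30695 the S82-2 difference from wt was 0.29 in number 1 and 0.10 in number 2.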

How the results depend on the processing

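Both genes kept the direction of the mean of the lines against aba3-1 under no filter, quantile normalization, the replicate block and all omissions of arrays. With 1 array left out it was 1.67 to 2.06 for AT2G30695 and -2.72 to -0.24 for AT3G15310, and with the block as well 1.50 to 2.22 and -1.75 to -1.22. Against wt it was -0.23 to 0.06 for AT2G30695 and -2.66 to 0.75 for AT3G15310, where leaving out 1 array without the block mixes the numbers; with the block AT3G15310 stayed between -1.25 and -0.66.

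The aba3-1 minus wt difference of AT2G30695 ranged from -2.14 to -1.75 with 1 array left out. Its call was lost with no filter (-1.95, adjusted p = 0.102, and 0.0577 with the replicate block), where more probe sets are tested. Quantile normalization kept it (-1.99, adjusted p = 0.0382).

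For AT3G15310 the pairs of lines called went from 0 to 3 with the replicate block, to 3 with quantile normalization and the block, to 1 with no filter and the block, to 2 without both S58-2 arrays and with the block, and to between 1 and 3 with the block and 1 array left out. For AT2G30695 they were between 0 and 1 in the last setting. With no array left out, the replicate block also added the calls of both genes for the mean of the lines against aba3-1, on which they were chosen, and it changed no other call given in the text. The shift between replicate numbers was 2.83 to 3.01 for AT3G15310 and -0.32 to -0.08 for AT2G30695 with 1 array left out. The settings without S58-2 arrays, and those that combine the block with another change, were added after seeing the data. Signals near the floor limit what the log2 differences from them measure.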

Other observations

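Lists of chloroplast chaperones and of DNA methylation and transposon silencing genes were counted between aba3-1 and wt; no table at hand ties AT2G30695 or AT3G15310 to them. Of 24 chloroplast chaperone and protein maturation genes, 8 were tested, and 0 were called higher and 0 lower by limma, with or without the block (0 had an unadjusted p under 0.05 without the block and 1 with it). Of all tested probe sets, 0.372% were called higher and 0.0778% lower without the block, and 3.27% and 1.71% with it, so a count of 0 among 8, or for DME below, is near the overall share. The list had a median difference of -0.20 against 0.005 over all tested probe sets. The largest differences were in AT5G55220 (7.74 in aba3-1 and 8.15 in wt, adjusted p = 1.0), in PDF1B, a peptide deformylase (6.77 in aba3-1 and 7.17 in wt, adjusted p = 1.0), and in Cpn60beta3, a chaperonin subunit (5.57 in aba3-1 and 5.23 in wt, adjusted p = 1.0). Of 24 silencing genes, DME alone was tested, a DNA glycosylase that removes methylated cytosine. Its 2 probe sets differed by 0.53 and 0.18, and neither was called (limma adjusted p = 0.751 and 1.0), with 0 at an unadjusted p under 0.05 without the block and 1 with it.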
